A study of Mus musculus with 4 samples.

Results

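The mitochondrial genome of the mouse encodes its own mRNAs, rRNAs and tRNAs, and the RNAs of all of them were followed here in newly made RNA. Its genes were taken as the rows whose symbol starts with mt-, which gave 37 of the 55401 genes in the deposited table, namely 13 mRNAs, 2 rRNAs and 22 tRNAs. The series set out to compare ZFP207 with SNRNP70, a protein of the U1 small nuclear ribonucleoprotein, which recognises 5′ splice sites. The data come from 129/Ola mouse embryonic stem cells kept in serum with leukemia inhibitory factor. RNA labelled with the uridine analogue 4-thiouridine (4sU) was biotinylated, caught on streptavidin beads and sequenced. The 5 h group (2 libraries) was given the auxin IAA for 5 h and carries the genotype label of SNRNP70 degradation. The 0 h group (2 libraries) received no IAA and is labelled WT, although its titles name the same degron line, so the tag on SNRNP70 is shared by both groups. A line without the tag, or treated with IAA but lacking it, was not analysed here. The sources used here give neither the number of clones behind the line nor the length of labelling.

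The circular mitochondrial genome is read by its own RNA polymerase, POLRMT, into long transcripts of both strands. These are cut at the tRNAs that lie between the other genes, and they hold no introns. The mRNAs encode core subunits of respiratory complexes I, III, IV and V, while the rRNAs and tRNAs serve the mitochondrial ribosome. All other subunits and every factor that copies, transcribes or processes the mitochondrial genome are made from nuclear genes, most of which have introns.

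Library totals ran from 7174772 to 17752887 counts. Every value is relative to other RNAs of the same library, as the sources used here name no spiked-in RNA. In these bulk samples fewer cells of a type and less RNA per cell cannot be told apart, nor can more mitochondrial RNA per cell from less labelled nuclear RNA. The series text calls the 2 libraries of a group independent without naming separate cultures, so the p-values may measure technical spread alone. All 12 stem cell markers examined were measured in every library, with a summed level of 4761 and 4680 CPM at 5 h and of 4630 and 4484 CPM at 0 h. CPM are counts per 1000000 counts of a library scaled with TMM, a method that sets most genes to no change. In the edgeR test used below, 6 of the 12 stem cell markers were higher at 5 h and 3 lower (adjusted p under 0.05). Over all tested genes 22.0% were higher and 21.2% lower. The sum therefore does not show that single markers were level. Of 9 fibroblast (feeder) markers 5 were at 0 in all libraries, and their sum was 14.3 and 13.7 CPM at 5 h and 12.4 and 10.9 CPM at 0 h. Of 10 markers of differentiated lineages 2 were at 0 throughout, and their sum was 22.9 and 27.3 CPM at 5 h and 17.0 and 11.7 CPM at 0 h. The labelled RNA of Snrnp70 stood at 451 and 475 CPM at 5 h and at 249 and 243 CPM at 0 h, which does not check the degron, since that acts on the protein.

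Mitochondrially encoded RNA took a larger share of the gene counts of labelled RNA after IAA. Labelled RNA not counted to a gene is no part of this share. At 5 h it made up 6.03% of all counts in replicate 1 and 7.17% in replicate 2, and at 0 h 4.41% and 4.34%. Library pairs are given in that order throughout. The means were 6.60% ± 0.808 at 5 h and 4.38% ± 0.0484 at 0 h (SD, n = 2 each), a ratio of 1.51. Counting error was small beside this, with exact 95% binomial intervals of at most 0.0157 percentage points on either side. An exact two-sided permutation test of the 2 against 2 libraries gave p = 0.333, the smallest that this design allows. Both 5 h libraries lay above both 0 h libraries, and the 5 h libraries differed from each other far more than the 0 h libraries did. On the TMM scale the median mitochondrial gene was 0.43 lower (log2) in 5 h replicate 1 than in 5 h replicate 2, while between the 0 h replicates the median difference was 0.00. The rise was 1.65 percentage points without 5 h replicate 2 and 2.79 without 5 h replicate 1, against 2.22 with all libraries.

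The mRNAs held 2.14 of these 2.22 percentage points. They took 5.56% and 6.77% of all counts at 5 h and 4.02% and 4.03% at 0 h. The rRNAs took 0.450% and 0.364% at 5 h and 0.377% and 0.295% at 0 h. The tRNAs took 0.0242% and 0.0342% at 5 h and 0.0202% and 0.0209% at 0 h. For mRNAs and tRNAs both 5 h libraries were above both 0 h libraries, and for rRNAs the groups overlapped. The ratio of the group means was 1.53 for mRNAs, 1.422 for tRNAs and 1.21 for rRNAs. Intervals reached at most 0.0153, 0.00115 and 0.00400 percentage points on either side for mRNAs, tRNAs and rRNAs.

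**Figure D1:**
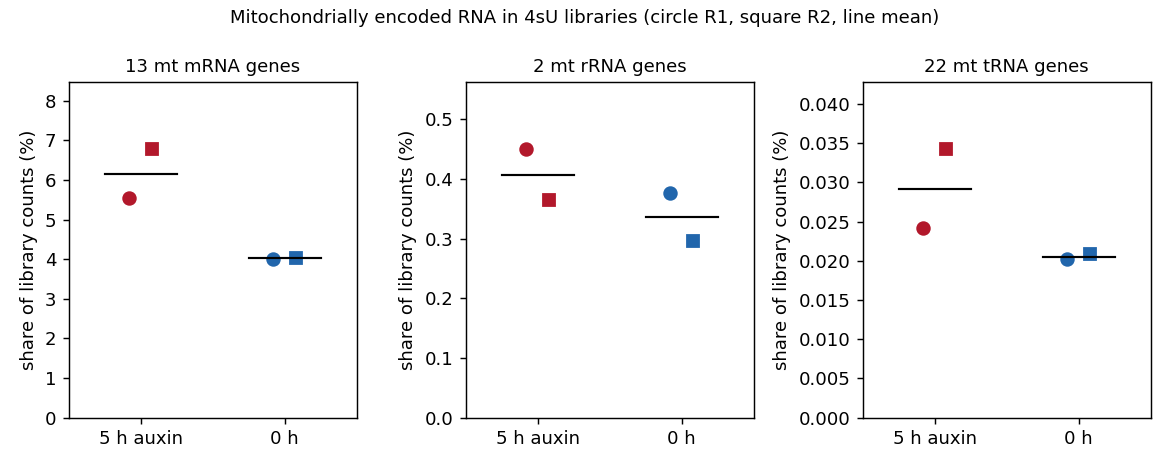
Share of all library counts (%, each axis from 0) taken by the mRNA, rRNA and tRNA genes of the mitochondrial genome, per library, with 5 h of IAA on the left and 0 h on the right of each panel and lines at the group means. The mRNA share was 5.56% and 6.77% at 5 h and 4.02% and 4.03% at 0 h, and the rRNA shares of the groups overlapped.

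Gene by gene, 36 of the 37 mitochondrial genes had enough counts to be tested, all but the tRNA gene mt-Tg. With TMM scaling, the quasi-likelihood test of edgeR, adjusted after Benjamini and Hochberg over 17344 genes, called 20 of the 36 higher at 5 h and 0 lower, and 16 did not pass an adjusted p of 0.05. Of all tested genes 22.0% were higher and 21.2% lower. The called members were 12 of 13 mRNAs, both rRNAs and 6 of 21 tested tRNAs. The median log2 fold change of the 36 genes was 0.79, against -0.02 for all tested genes. Without 5 h replicate 2 that median was 0.54. Scaled to library totals, where 13.2% of all genes were higher and 30.3% lower, 14 of the 36 were higher (12 mRNAs and 2 tRNAs) and 0 were lower, with a median of 0.52 against -0.28 for all genes. Here the median of the 36 was 0.29 without 5 h replicate 2.

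**Figure D2:**
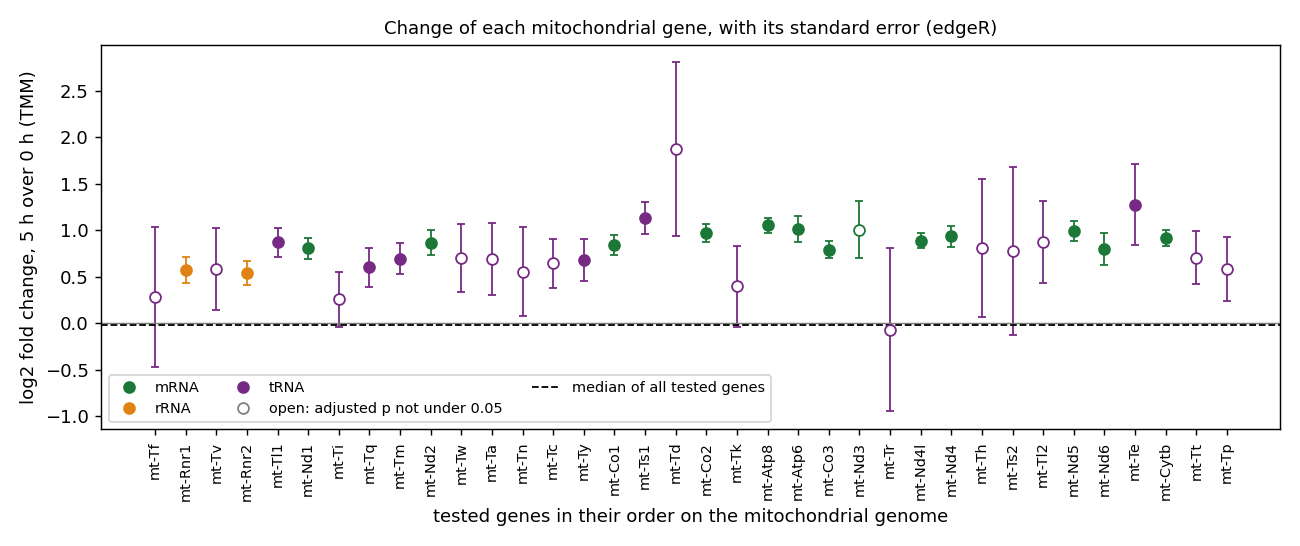
Log2 fold change of labelled RNA, 5 h over 0 h (TMM scaling), with its standard error for the 36 tested mitochondrial genes in genome order, coloured by RNA class. Filled points passed an adjusted p of 0.05, and the dashed line is the median of all tested genes at -0.02. The mRNAs lie between 0.79 and 1.05, the rRNAs at 0.54 and 0.57, and the tRNAs spread from -0.07 to 1.87.

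Complex I, the NADH dehydrogenase that feeds electrons into the chain, has 7 mitochondrially encoded subunits, and 6 of their mRNAs rose. mt-Nd1, which lies from 2751 to 3707 on the mitochondrial genome (GRCm38.p6), had 7240 and 9532 CPM at 5 h and 4767 and 4833 CPM at 0 h, a log2 fold change of 0.80 ± 0.12 (SE; edgeR, adjusted p = 0.000338). mt-Nd2 had 3856 and 5336 CPM at 5 h and 2536 and 2500 CPM at 0 h (0.87 ± 0.13, edgeR adjusted p = 0.000642). Both encode parts of the membrane arm that pumps protons, and for both the lower 5 h library was replicate 1. mt-Nd4, from 10167 to 11544, had 5645 and 7458 CPM at 5 h and 3456 and 3403 CPM at 0 h (0.93 ± 0.12, edgeR adjusted p = 0.000155). mt-Nd5, from 11742 to 13565, had 4803 and 6080 CPM at 5 h and 2702 and 2775 CPM at 0 h (0.99 ± 0.11, edgeR adjusted p = 7.05e-05). These belong to the same membrane arm, and their groups did not overlap. mt-Nd4l, which is read on one mRNA with mt-Nd4 and overlaps it by 7 bases, had 1292 and 1239 CPM at 5 h and 674.5 and 695 CPM at 0 h (0.89 ± 0.08, edgeR adjusted p = 3.27e-05). Unlike mt-Nd4, its 5 h replicates were nearly level. mt-Nd6, the one mRNA of the other strand, had 399 and 595 CPM at 5 h and 298 and 273 CPM at 0 h (0.80 ± 0.17, edgeR adjusted p = 0.00591). Without 5 h replicate 2 the log2 change of mt-Nd6 was 0.50. mt-Nd3 had 264.5 and 474 CPM at 5 h and 196 and 170.5 CPM at 0 h. Its groups did not overlap, but at 1.01 ± 0.31 it was the only mRNA not to pass (edgeR, adjusted p = 0.0636). Over 12 alternative fits mt-Nd3 went uncalled in 8. Among these were limma-voom (0.90, adjusted p = 0.207), counts divided by 4 (0.98, edgeR adjusted p = 0.170) and a stricter filter (1.01, edgeR adjusted p = 0.0959). DESeq2 called it (adjusted p = 0.0432), as did edgeR without a low-count filter. It also passed with either 5 h library left out (1.37 without replicate 1, 0.54 without replicate 2), but there the 0 h pair alone gives the spread and the gap between the 5 h libraries is gone.

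The mRNAs of the later complexes moved in the same range. mt-Cytb, the cytochrome b of complex III, from 14145 to 15288, had 9380 and 10679 CPM at 5 h and 5332 and 5334 CPM at 0 h (log2 0.91 ± 0.09, edgeR adjusted p = 3.71e-05). The 0 h libraries were almost identical and both 5 h libraries were above them. mt-Co1, the catalytic subunit of cytochrome c oxidase (complex IV), was the row with the most counts in the whole table. It lies from 5328 to 6872 and had 16073 and 20727 CPM at 5 h and 10183 and 10329 CPM at 0 h (0.84 ± 0.11, edgeR adjusted p = 0.000201). mt-Co2, which takes electrons from cytochrome c, had 2960 and 3513 CPM at 5 h and 1667 and 1640 CPM at 0 h (0.97 ± 0.09, edgeR adjusted p = 4.35e-05). mt-Co3, the third core subunit of the complex, had 3888 and 4477 CPM at 5 h and 2504 and 2327 CPM at 0 h (0.79 ± 0.09, edgeR adjusted p = 9.83e-05). In all of them 5 h replicate 2 was the higher of its pair. In ATP synthase (complex V), mt-Atp6, part of the proton channel, had 3549 and 4990 CPM at 5 h and 2069 and 2158 CPM at 0 h (1.01 ± 0.14, edgeR adjusted p = 0.000509). mt-Atp8, a small membrane subunit whose reading frame runs 43 bases into that of mt-Atp6, had 680 and 677 CPM at 5 h and 316 and 339 CPM at 0 h. It had the largest log2 fold change among the mRNAs, 1.05 ± 0.08 (edgeR, adjusted p = 1.77e-05). Its 5 h libraries were level, as those of mt-Nd4l were. How the counting shared reads between the overlapping genes was not given in the sources used here.

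Both rRNAs rose with TMM scaling, with log2 fold changes below those of the mRNAs. Without 5 h replicate 2 that order did not hold, as mt-Rnr2 was at 0.70 and mt-Nd1 at 0.61. mt-Rnr1, the 12S rRNA of the small mitochondrial ribosomal subunit, from 70 to 1024, had 329 and 403 CPM at 5 h and 278 and 213 CPM at 0 h (log2 0.57 ± 0.14, edgeR adjusted p = 0.00645). mt-Rnr2, the 16S rRNA of the large subunit, from 1094 to 2675, had 4531 and 3671 CPM at 5 h and 3164 and 2485 CPM at 0 h (0.54 ± 0.13, edgeR adjusted p = 0.00796). For mt-Rnr2 replicate 1 was the higher library in both groups, the reverse of most mRNAs at 5 h. Neither passed when scaled to library totals, with log2 fold changes of 0.30 and 0.27 (edgeR, adjusted p = 0.0898 and 0.146). The calls were also lost with single libraries left out. mt-Rnr1 did not pass without 0 h replicate 2 (0.40, edgeR adjusted p = 0.0841) or without 5 h replicate 2 (0.44, adjusted p = 0.0661). mt-Rnr2 did not pass without 0 h replicate 2 (0.37, edgeR adjusted p = 0.122) or without 5 h replicate 1 (0.38, adjusted p = 0.427). It also lost the call without 5 h replicate 2 (0.70, edgeR adjusted p = 0.166) and with limma-voom (0.53, adjusted p = 0.0743), where the fold change was larger or about as large. Whether rRNA was depleted from these libraries was not given in the sources used here.

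The tRNAs, of 59 to 75 bases, were counted far more thinly. All 22 together had 1500 to 3788 counts in a library, and 14 had under 100 counts in every library. Of the 21 tested, 20 had a positive log2 fold change with TMM scaling, and the median was 0.69. The 6 that passed were 28.6%, not far above the 22.0% called higher over all tested genes. The median was 0.35 without 5 h replicate 2 and 1.03 without 5 h replicate 1. mt-Ts1, which lies on the strand opposite the end of mt-Co1 and overlaps it by 3 bases, had 45.5 and 62.8 CPM at 5 h and 25.1 and 23.9 CPM at 0 h (1.13 ± 0.17, edgeR adjusted p = 0.000447). mt-Tl1, between mt-Rnr2 and mt-Nd1, had 60.2 and 79.1 CPM at 5 h and 39.5 and 36.3 CPM at 0 h (0.87 ± 0.15, edgeR adjusted p = 0.00107). These serine and leucine tRNA genes also passed when scaled to library totals. mt-Tm, the methionine tRNA gene, had 33.3 and 43.6 CPM at 5 h and 23.6 and 23.7 CPM at 0 h (0.69 ± 0.17, edgeR adjusted p = 0.00700). For each of these tRNA genes both 5 h libraries were above both 0 h libraries. mt-Tq (glutamine) had 21.1 and 29.2 CPM at 5 h and 14.9 and 18.3 CPM at 0 h (0.60 ± 0.21, edgeR adjusted p = 0.0383). mt-Ty (tyrosine) had 32.9 and 56.9 CPM at 5 h and 27.0 and 28.8 CPM at 0 h (0.68 ± 0.23, edgeR adjusted p = 0.0338). mt-Te (glutamate) had 4.07 and 9.40 CPM at 5 h and 2.78 and 2.67 CPM at 0 h (1.28 ± 0.44, edgeR adjusted p = 0.0366), and its 5 h libraries differed from each other more than any of these. Without 5 h replicate 2 none of mt-Tq (0.38), mt-Ty (0.26) and mt-Te (0.59) passed (edgeR, adjusted p = 0.205, 0.258 and 0.379). mt-Tq also missed without 0 h replicate 1 (0.46, edgeR adjusted p = 0.182) and with DESeq2 (0.61, adjusted p = 0.0780). mt-Ty missed without 0 h replicate 2 (0.72, edgeR adjusted p = 0.104) and with limma-voom (0.59, adjusted p = 0.0550). mt-Te missed without 0 h replicate 2 (1.251, edgeR adjusted p = 0.0883), with DESeq2 (1.31, adjusted p = 0.0681) and with limma-voom (1.04, adjusted p = 0.0591). Without 5 h replicate 2 the fold changes of mt-Tq, mt-Ty and mt-Te were well below those with all libraries. The fold changes were also lower for mt-Tq without 0 h replicate 1 and for mt-Te with limma-voom. In the other fits listed they were close to those with all libraries. Among tRNAs that did not pass, mt-Td ranged up to 1.87 ± 0.94 on 5 to 19 counts a library, and mt-Tr down to -0.07 ± 0.88 on 6 to 16.

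Per kilobase, the level of a tRNA gene was a small part of that of its neighbours. mt-Tl1 was the highest tRNA, with a mean of 717 CPM per kb over the 4 libraries, 10.4% of that of mt-Nd1 beside it. mt-Ts1, mt-Ty and mt-Tm followed with 570, 543 and 450 CPM per kb, and mt-Tg was the lowest with 4.50. Each of the 22 thus stood at 10.4% or less of the higher of its nearest mRNA or rRNA genes. Across the 22 tRNA genes Spearman's rho between the 2 levels was 0.543, over genes that share libraries and partly share neighbours. Of the 22 genes 6 overlap a neighbour by 1 to 3 bases. The genes are so short that a read of a precursor RNA or of an uncut junction can be counted to them, and how much this added was not tested. The size selection of the libraries was not given in the sources used here.

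Within the mitochondrial RNAs the composition showed no change that passed the test. Scaled to the summed mitochondrial counts of each library, where a fold change is that of a gene's share of mitochondrial counts, edgeR called 0 of 36 members higher and 0 lower, with 0 at an unadjusted p under 0.05. DESeq2 and limma-voom with the same scaling also called 0 and had 0 at an unadjusted p under 0.05. On this scale 2.28% of all genes were higher and 51.2% lower. The median of the members was -0.06, that of all genes -0.86. The libraries of the groups did not overlap for 12 of the 36 members (33.3%), against 78.1% of all tested genes. With 2 against 2 libraries in random order, no overlap in either direction has a probability of 0.333. The scaling uses the members' own sum, which centres the members and shifts the other genes. The shares over all genes are therefore no yardstick for a stable composition. The fit also shares its estimate of spread across all genes. On this scale the other genes take on the gap in mitochondrial share between the 5 h libraries. The lack of calls therefore does not show that the composition was the same.

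The mRNAs made up 92.1% and 94.4% of mitochondrial counts at 5 h and 91.0% and 92.7% at 0 h. The rRNAs made up 7.46% and 5.08% at 5 h and 8.53% and 6.80% at 0 h. The tRNAs made up 0.401% and 0.477% at 5 h and 0.457% and 0.481% at 0 h. For all of the classes the groups overlapped, and replicate 1 had more rRNA and less mRNA than replicate 2 in both groups. Put per 100 mRNA counts, there were 8.10 and 5.38 rRNA counts at 5 h and 9.38 and 7.33 at 0 h. The rRNA share was 1.40 percentage points lower at 5 h on average. It was 0.207 points lower without 5 h replicate 2, 2.59 without 5 h replicate 1, 0.532 without 0 h replicate 1 and 2.27 without 0 h replicate 2. With mt-Rnr2 left out of the sums, the remaining rRNA share fell by 0.125 points and the mRNA share rose by 0.164 points, against a rise of 1.43 points with it. The intervals of these shares reached at most 0.0918 points on either side for mRNAs, 0.0889 for rRNAs and 0.0249 for tRNAs.

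Single members showed how far the shares of the libraries lay apart. mt-Rnr2 was 6.95% and 4.58% of mitochondrial counts at 5 h and 7.85% and 6.26% at 0 h, a log2 fold change of -0.29 ± 0.18 (edgeR, adjusted p = 0.206). mt-Rnr1 was 0.505% and 0.502% at 5 h and 0.688% and 0.536% at 0 h, at -0.28 ± 0.16 (edgeR, adjusted p = 0.157). For mt-Rnr1 the groups did not overlap, while for mt-Rnr2 they did. mt-Atp8 was 1.04% and 0.844% at 5 h and 0.783% and 0.855% at 0 h (0.20 ± 0.15, edgeR adjusted p = 0.280). mt-Co2, at 4.54% and 4.38% at 5 h and 4.13% and 4.13% at 0 h, had a log2 fold change of 0.11 ± 0.12 (edgeR, adjusted p = 0.455). mt-Nd5, at 7.37% and 7.58% at 5 h and 6.70% and 6.997% at 0 h, had one of 0.13 ± 0.11 (edgeR, adjusted p = 0.360). mt-Co2, mt-Nd5, mt-Atp6 and mt-Nd4 were the mRNAs whose 5 h shares both lay above both 0 h shares. With 1 of the 5 h libraries left out, some members were called, but these fits take the spread from the 0 h pair alone and assume that the lone 5 h library varies like it. No member was called in both. Without 5 h replicate 1 these were mt-Nd3 (0.37), mt-Atp6 (0.23) and mt-Rnr2 (-0.63), and without 5 h replicate 2 they were mt-Atp8 (0.35), mt-Nd4l (0.21) and mt-Ty (-0.46).

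**Figure D3:**
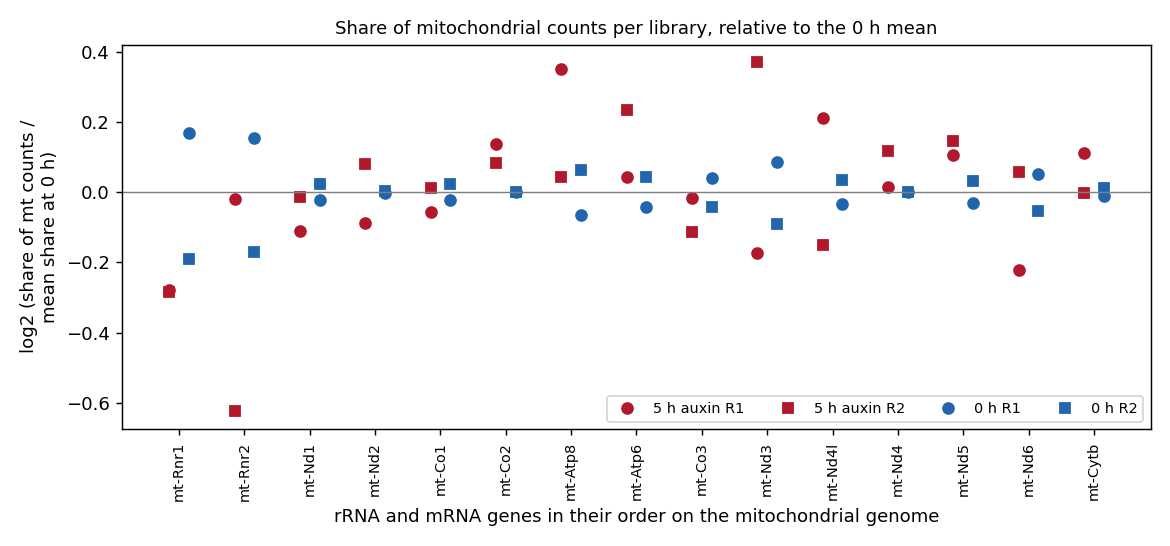
Share of mitochondrial counts taken by each rRNA and mRNA gene in each library, as the log2 ratio to its mean share at 0 h, in genome order. Circles are replicate 1 and squares replicate 2. Most mRNA points lie within 0.2 of the 0 h mean, and mt-Rnr2 in 5 h replicate 2 is the lowest point.

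By complex, complex I mRNAs made up 36.1% and 38.3% of mitochondrial counts at 5 h and 36.3% and 36.9% at 0 h, and complex III (mt-Cytb) 14.4% and 13.3% at 5 h and 13.2% and 13.4% at 0 h. Complex IV mRNAs made up 35.2% and 35.8% at 5 h and 35.6% and 36.0% at 0 h, and complex V mRNAs 6.49% and 7.06% at 5 h and 5.91% and 6.30% at 0 h. The groups overlapped for complexes I, III and IV, and for complex V both 5 h libraries were above both 0 h libraries. The strands were compared through mt-Nd6 and the tRNAs. mt-Nd6, the only mRNA of its strand by textbook assignment, stood at 0.669 and 0.792 counts per 100 counts of the other mRNAs at 5 h and at 0.819 and 0.747 at 0 h. The 8 tRNAs of the same strand as mt-Nd6 took 0.202% and 0.258% of mitochondrial counts at 5 h and 0.229% and 0.253% at 0 h, and the other 14 took 0.200% and 0.219% at 5 h and 0.228% and 0.228% at 0 h.

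Place on the genome was looked at because the rRNAs lie at the start of the main transcript. Over the 15 mRNA and rRNA genes, which share the 4 libraries, Pearson's r between the change in mitochondrial share and the position was 0.597 and Spearman's rho 0.393. Over the 13 mRNAs alone these were 0.142 and 0.0714, so the relation rested on the rRNAs. The difference between the 0 h replicates gave an r of -0.467 over the same 15 genes, and that between the 5 h replicates one of -0.249. Over the mRNAs the change in share had an r of -0.178 with gene length.

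Levels per length put the 15 mRNA and rRNA genes in nearly the same order in every library. mt-Co1 was first in all 4 libraries, with 11909 ± 2130 CPM per kb at 5 h and 6638 ± 66.8 at 0 h (SD, n = 2 each), and mt-Rnr1 was last of these 15 in all 4, with 383 ± 54.8 at 5 h and 257 ± 48.1 at 0 h. mt-Nd1 had 8762 ± 1693 at 5 h and 5016 ± 48.3 at 0 h, and mt-Cytb 8767 ± 803 at 5 h and 4662 ± 1.36 at 0 h. These neighbours in the order were separated at 0 h and changed places between the 5 h libraries. mt-Atp6, with 6270 ± 1496 at 5 h and 3104 ± 93.0 at 0 h, and mt-Co3, with 5335 ± 531 at 5 h and 3080 ± 160 at 0 h, did not differ beyond their spread. mt-Nd4, mt-Nd2, mt-Co2 and mt-Nd4l followed, with 4754, 4428, 4732 and 4261 CPM per kb at 5 h and 2488, 2426, 2417 and 2306 at 0 h. Among these, mt-Nd2 and mt-Co2 overlapped at 0 h, and all 4 overlapped at 5 h. mt-Atp8, mt-Nd5 and mt-Rnr2 had 3325, 2983 and 2592 CPM per kb at 5 h and 1605, 1501 and 1785 at 0 h, and at 0 h mt-Rnr2 overlapped mt-Atp8 but not mt-Nd5, which was lowest of these in both libraries. mt-Nd3 and mt-Nd6 stood much lower, with 1062 and 958 CPM per kb at 5 h and 526 and 550 at 0 h, and they overlapped each other in both groups. The 12S rRNA thus had fewer counts per kb than any mRNA in each library. The order takes the counts of the mt- rows as deposited. The places of mt-Co2, mt-Atp6, mt-Co3, mt-Nd3 and mt-Nd4l in it are uncertain, since the predicted genes described next carried nearly the same counts.

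A set of predicted genes outside the mt- rows carried nearly the same counts as some mitochondrial genes. RefSeq places the pseudogenes Gm10222 and Gm10925 on chromosome 1 (GRCm38.p6), from 24612404 to 24612700 and from 24613971 to 24614651, and lists mt-Atp6 among the synonyms of Gm10925. Their outer ends are 2247 bases apart, while those of mt-Nd4l and mt-Atp6 on the mitochondrial genome are 2246 bases apart. Gm10925 had 53011 and 46219 counts at 5 h and 41226 and 17458 at 0 h, between 1.00 and 1.03 times those of mt-Atp6. Gm10222 had 18635 and 11632 counts at 5 h and 13773 and 5050 at 0 h, between 0.924 and 1.05 times those of mt-Nd4l. Among 23 predicted genes with at least 1000 counts in every library, 3 more tracked a mitochondrial gene within 15% in every library. Gm28437 had 0.987 to 1.00 times the counts of mt-Co3, Gm28661 had 0.960 to 0.985 times those of mt-Co2, and Gm28438 had 0.996 to 1.03 times those of mt-Nd3. These rows were singled out after their counts were seen, and their sequences were not compared.

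mt-Co2, mt-Atp6, mt-Co3, mt-Nd3 and mt-Nd4l lie in 1 stretch of the mitochondrial genome, from 7013 to 10173. mt-Atp8 lies there too and had no such match, its nearest predicted gene holding 0.563 to 0.631 times its counts. They made up 18.3% and 18.3% of mitochondrial counts at 5 h and 17.6% and 17.6% at 0 h. The 5 predicted genes held a further 1.11% and 1.31% of all counts at 5 h and 0.777% and 0.759% at 0 h. With them added, mitochondrial RNA came to 7.14% and 8.49% of all counts at 5 h and to 5.19% and 5.10% at 0 h. Whether the counting gave a shared read to both rows or part of it to each was not tested, so the levels of these mitochondrial genes against the others, and the shares above, are uncertain to that extent. Summing each pair left 20 members higher with TMM scaling, 14 with library totals and 0 with mitochondrial totals, the same numbers as without it.

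**Figure D4:**
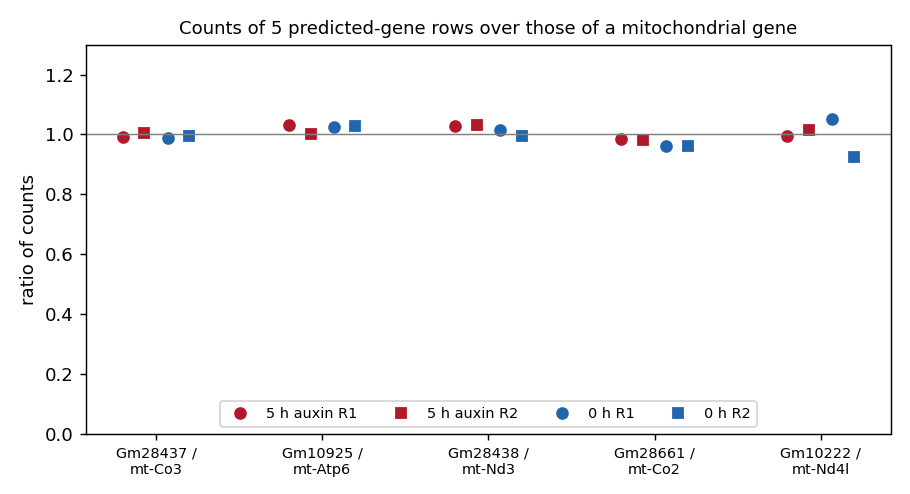
Counts of 5 predicted genes divided by those of the mitochondrial gene each one tracks, per library (axis from 0, line at 1). Circles are replicate 1 and squares replicate 2, with 5 h libraries left of 0 h libraries. All ratios lie between 0.924 and 1.05.

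The nuclear-encoded subunits of the same complexes did not move as one block. Of 74 tested genes on this list 27 rose, 10 fell and 37 did not pass by the same edgeR fit with TMM scaling. Over all tested genes 22.0% were higher and 21.2% lower. The median log2 fold change of the list was 0.29, with an interquartile range from -0.27 to 0.66. The comparison with the mitochondrial mRNAs was not tested, since a list chosen with results known allows no test here. In complex I 5 of 36 were higher and 6 lower, with a median of -0.02, and both counts are smaller shares than the 22.0% and 21.2% over all tested genes. Ndufa10 had 70.9 ± 4.65 CPM at 5 h and 34.2 ± 1.74 at 0 h (log2 1.05 ± 0.13, SE; edgeR adjusted p = 0.000127), and Ndufa12 had 5.77 ± 0.824 at 5 h and 16.8 ± 1.19 at 0 h (-1.53 ± 0.24, edgeR adjusted p = 0.000545). The mitochondrial mRNAs of this complex lay between 0.80 and 1.01, and its nuclear subunits on both sides of 0.

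For the other complexes more of the nuclear members rose, beside 22.0% higher and 21.2% lower over all tested genes. Of 9 complex III genes 6 rose and 0 fell, with a median of 0.71. Among them Uqcrh, a small hinge subunit, had 40.3 ± 1.19 CPM at 5 h and 16.3 ± 0.830 at 0 h (1.31 ± 0.15, edgeR adjusted p = 0.000109). Of 11 complex IV genes 6 rose and 0 fell, with a median of 0.49, and Cox5b had 45.6 ± 4.31 CPM at 5 h and 20.1 ± 0.413 at 0 h (1.17 ± 0.15, edgeR adjusted p = 0.000170). Of 18 complex V genes 10 rose and 4 fell, with a median of 0.38. Atp5g3, one of the genes for the ring-forming c subunit, had 118 ± 0.456 CPM at 5 h and 34.6 ± 4.49 at 0 h (1.76 ± 0.12, edgeR adjusted p = 1.01e-05), while Atp5g2, which encodes the same c subunit, changed by -0.58 ± 0.21 (edgeR, adjusted p = 0.0441). These medians are on the TMM scale and change sign with mitochondrial totals, where they were -0.16 for complex III, -0.37 for complex IV and -0.47 for complex V.

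Nuclear genes that maintain mitochondrial DNA and make, cut or degrade its RNA moved in both directions. Over 5 lists with 74 tested genes, 15 rose (20.3%), 29 fell (39.2%) and 30 did not pass, with a median of -0.21. Over all tested genes 22.0% were higher and 21.2% lower. In transcription, 2 of 11 rose and 4 fell. Polrmt, the polymerase, had 53.4 and 35.8 CPM at 5 h and 33.5 and 33.2 CPM at 0 h and did not pass (0.43 ± 0.18, edgeR adjusted p = 0.0828). Tfam, which packs mitochondrial DNA and helps POLRMT start, fell to 45.9 and 51.0 CPM at 5 h, against 82.9 and 84.2 CPM at 0 h (-0.79 ± 0.12, edgeR adjusted p = 0.000424). Its span on chromosome 10 runs from 71225468 to 71238328. Tefm, the elongation factor of POLRMT, had 9.40 ± 1.84 CPM at 5 h and 27.7 ± 0.291 at 0 h (-1.54 ± 0.20, edgeR adjusted p = 0.000190). Tfb2m, the initiation factor that melts the promoter, was at 0.37 ± 0.14 with TMM scaling (edgeR, adjusted p = 0.0491), at 0.10 with library totals (adjusted p = 0.571) and at -0.49 with mitochondrial totals (adjusted p = 0.0316).

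**Figure D5:**
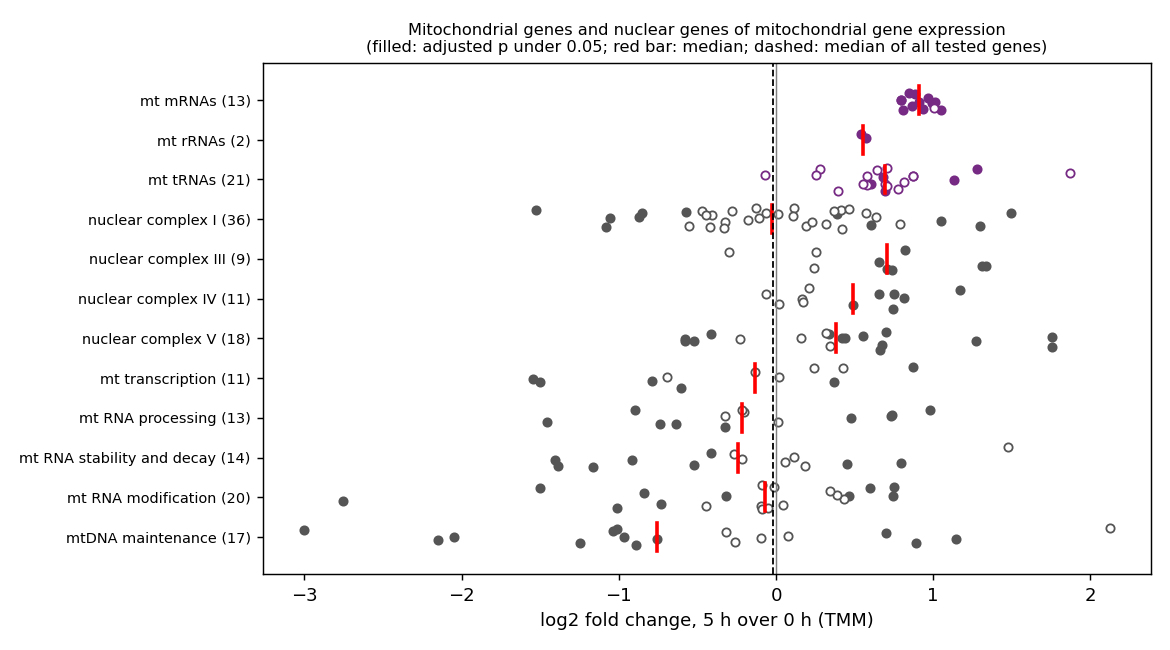
Log2 fold change of labelled RNA, 5 h over 0 h (TMM scaling), for the tested mitochondrial genes by class and for nuclear genes of 9 lists, with the number of tested genes in brackets. Filled points passed an adjusted p of 0.05, red bars are medians, and the dashed line is the median of all tested genes. The median is 0.91 for mitochondrial mRNAs, -0.02 for nuclear complex I genes and -0.76 for mitochondrial DNA maintenance.

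Genes that process the RNA moved both ways, with 4 of 13 higher and 5 lower and a median of -0.21. All tested genes did so too, with 22.0% higher and 21.2% lower. The enzyme that cuts the 5′ ends of mitochondrial tRNAs has subunits that differed. Trmt10c had 206 ± 33.6 CPM at 5 h and 104 ± 3.63 at 0 h (0.98 ± 0.12, edgeR adjusted p = 0.000140), while Prorp, its nuclease, had 28.5 ± 3.98 at 5 h and 53.5 ± 3.20 at 0 h (-0.90 ± 0.15, edgeR adjusted p = 0.000716). Hsd17b10, the remaining subunit, also named after its values were seen, did not pass (-0.20 ± 0.25, edgeR adjusted p = 0.544). Elac2, which cuts the 3′ ends and was named after its values were seen, had a log2 fold change of -0.21 ± 0.13 (edgeR, adjusted p = 0.210). Mtpap, the mitochondrial poly(A) polymerase, rose by 0.74 ± 0.10 (edgeR, adjusted p = 0.000240).

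Of 14 genes for stability and decay, 2 rose and 6 fell, with a median of -0.24. Beside this, 22.0% of all tested genes were higher and 21.2% lower. Slirp, which binds mitochondrial mRNAs together with LRPPRC and keeps them stable, had 4.67 ± 0.333 CPM at 5 h and 12.4 ± 0.209 at 0 h (-1.41 ± 0.26, edgeR adjusted p = 0.00141). Lrpprc itself had 116 and 122 CPM at 5 h and 134 and 142 CPM at 0 h, and did not pass (-0.22 ± 0.10, edgeR adjusted p = 0.101). Supv3l1, the helicase of the mitochondrial degradosome, fell to 28.2 ± 3.42 CPM at 5 h, against 63.0 ± 3.34 at 0 h (-1.17 ± 0.14, edgeR adjusted p = 0.000121), and Pnpt1, its nuclease partner, also named after its values were seen, changed by -0.41 ± 0.13 (edgeR, adjusted p = 0.0305). So both partners of the degradosome fell, while of the mRNA-binding pair only Slirp passed. Of 20 genes for RNA modification 4 rose and 6 fell, against 22.0% and 21.2% over all tested genes. Mto1 and Gtpbp3, whose products modify the same tRNA wobble base, had log2 fold changes of -0.73 ± 0.15 and 0.74 ± 0.16 (edgeR, adjusted p = 0.00274 and 0.00318).

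Of 17 genes for mitochondrial DNA maintenance 9 fell and 3 rose, with a median of -0.76. Over all tested genes 21.2% were lower and 22.0% higher. Polg, the catalytic subunit of the mitochondrial DNA polymerase, had 308 ± 18.9 CPM at 5 h and 139 ± 8.59 at 0 h (1.15 ± 0.10, edgeR adjusted p = 2.17e-05), and Twnk, the replicative helicase, had 138 ± 3.37 at 5 h and 74.6 ± 0.0835 at 0 h (0.89 ± 0.10, edgeR adjusted p = 8.47e-05). Polg2, the accessory subunit of the polymerase, was named after its values were seen and changed by -1.01 ± 0.23 (edgeR, adjusted p = 0.00531). Primpol, a primase-polymerase, had 6.73 ± 1.418 CPM at 5 h and 30.5 ± 3.14 at 0 h (-2.15 ± 0.21, edgeR adjusted p = 4.73e-05), and Tk2, a kinase that supplies thymidine nucleotides to mitochondria, had 3.17 ± 1.28 at 5 h and 13.4 ± 3.44 at 0 h (-2.05 ± 0.34, edgeR adjusted p = 0.000733). These are levels of labelled nuclear RNA, and neither protein nor mitochondrial DNA was measured.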

How the data were processed

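RNA labelled with 4sU was sequenced from 2 libraries at 5 h of IAA and 2 at 0 h. The authors deposited 1 table of whole-number estimated counts per gene. The submitters' processing notes name mm10, DESeq2 1.42.0, StringTie 2.2.1 and HISAT2 2.2.1 without roles. The deposited values are laid out as StringTie's count export and hold 3 and 4 each more often than 2 in every library, so they were treated as estimates from coverage, and counting error can exceed what they imply. The sources used here do not give the annotation or strandedness.

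Totals were 15645894 and 10349277 (5 h, replicates 1 and 2) and 17752887 and 7174772 (0 h). A floor of 3 counts was 0.192, 0.290, 0.169 and 0.418 CPM in that order, and floors and intervals cover counting error only. Genes kept by filterByExpr were fitted across the whole table in edgeR 4.0.16 (robust quasi-likelihood, group only), with Benjamini-Hochberg adjustment over 17344 genes and a threshold of 0.05. The fit was made with TMM factors, with library totals and with summed mitochondrial counts as library size. Alternatives used limma 3.58.1 (voom), DESeq2 1.42.0, other filters, counts divided by 4, left-out libraries and a replicate block. The code was tested on simulated data. Members and gene lists were chosen with earlier results of these data known. The rule names all members, with full values for mRNAs, rRNAs, called tRNAs and the 3 tRNAs with most counts, and up to 4 genes a direction from other lists, with Polrmt, Tfam, Lrpprc and Snrnp70. Summing predicted-gene rows into mitochondrial genes was added after seeing the data. All 37 genes were placed through a RefSeq gene table (GRCm38.p6) by their standard names. Strand came from textbook knowledge. Sequences of mitochondrial genes were not used here.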

Additional observations from a re-analysis of the deposited data

How the results depend on the processing

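The number of mitochondrial genes higher at 5 h with TMM scaling was 20, and 17 to 23 without a low-count filter, with a stricter one, with a replicate block, limma-voom, DESeq2, counts divided by 4, TMM factors without mitochondrial genes or predicted-gene rows summed in. Leaving out 1 library gave 16 to 24. With library totals it was 14, and 11 with limma-voom, 13 with DESeq2 and 18 without a low-count filter. The other fits of all libraries gave 14 or 15. No member was lower in any of these fits. The 21 members named next were the mRNAs, the rRNAs and the 6 tRNAs called higher in the main fit. Those tRNAs were thus chosen for their rise in these libraries, which the alternatives only refit. Their shared signs are therefore no separate support. For 21 named members, all 252 log2 fold changes under 12 alternatives were positive, 17 lost the call and 4 (mt-Nd3) gained it. With mitochondrial totals, 0 members were higher and 0 lower, and with 1 library left out 0 to 2 were higher and 0 to 1 lower. The tRNA share of mitochondrial counts, 0.0300 percentage points lower at 5 h, ranged from -0.0677 to 0.0076 points with 1 library left out, reversing without 5 h replicate 1. The cause was not tested. Replicate numbers were not used to pair libraries, since no label ties them and there are only 2 pairs. Deviations of same-numbered libraries correlated at r = 0.0505 over 17344 genes and at 0.284 over the 36 mitochondrial genes. The fit with the replicate block called 19 members on the TMM scale, 15 scaled to the library and 0 scaled to the mitochondrial sum. On the TMM scale it lost mt-Te (1.14 against 1.28, edgeR adjusted p = 0.0636). Of the 22 tRNAs 14 had under 100 counts in every library. Counts divided by 4 called 7 of the 15 tRNAs still tested, against 6 of 21 in the main fit.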
